A study of Mus musculus with 6 samples.

Results

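RNA-seq values of 8 genes of the trophoblast lineage were followed in WT J1 mouse ES cells that were moved from serum to 2i+vitC medium. The genes are Elf5, Eomes, Hand1, Tfap2c, Tead4, Krt8, Krt18 and Plac1, and their rows were found by an exact match of the name among 12626 genes. Of the 8, 5 had a row (Eomes, Tfap2c, Tead4, Krt8 and Krt18), and Elf5, Hand1 and Plac1 had none and were not analysed here. Every gene in the tables was above 1 CPM (read counts scaled to the size of each library) in at least 2 samples. There were 6 samples, 2 biological replicates at each of 3 days. D0 cells were in serum medium with 15% FBS and 1000 U/mL LIF, without feeders. D6 and D13 cells had spent 6 and 13 days in medium without serum, with the same LIF, 3 μM of the Gsk3 inhibitor CT-99021, 1 μM of the MEK inhibitor PD0325901 and 100 μg/mL vitamin C. Between D0 and the other days the medium and the time in culture changed together, and they cannot be told apart. DNA methylation at these genes was not analysed here.

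The trophoblast is the embryonic lineage that forms the placenta, and it separates from the pluripotent cells of the embryo in the blastocyst. TEAD4, which acts with the Hippo pathway coactivators YAP and TAZ, TFAP2C and EOMES are transcription factors of this lineage. ELF5 is a factor whose promoter is known to be methylated in ES cells and not in trophoblast stem cells, HAND1 acts in trophoblast giant cells, and PLAC1 is a placental protein encoded on the X chromosome. KRT8 and KRT18 are partner keratins that together form the intermediate filaments of simple epithelia such as the trophectoderm.

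Gene reads ranged from 73230745 to 83688345 per sample, and 3 reads were worth between 0.034 and 0.042 CPM. The summed level of 8 ES cell markers lay between 4508 and 6781 CPM in the 6 samples. Of the 7 other trophoblast markers, 5 had a row, while Cdx2 and Tpbpa had none. Their summed levels were 51.4 and 35.3 CPM at D0, 26.7 and 21.2 at D6, then 39.7 and 30.0 at D13. The genes behind these sums changed, with Krt19 at 33.4 and 17.4 CPM at D0 and 1.03 and 1.91 at D13. Krt7 was at 6.59 and 4.22 CPM at D0 and 7.66 and 6.46 at D13, and Ascl2 at 2.79 and 1.72, then 4.87 and 3.71. Tfap2a, whose values are given below, rose from D0 to D13, and the values of Plet1 are not reported here. Only 1 of 6 mesoderm markers had a row, at 1.53 to 3.28 CPM, and 4 of 6 endoderm markers did, at 286 to 532 CPM in sum. The endoderm sum does not follow each marker. Dab2 was at 15.9 and 16.8 CPM at D0 and 0.594 and 0.699 at D13. Lama1 was at 54.3 and 94.5 CPM at D0 and 95.4 and 123 at D13, a log2 fold change of 0.59 (adjusted p = 0.13, limma). The highest value of any endoderm marker in a sample was 8.76 log2 CPM, so a marker other than these made up most of that sum. The part of other cell types in the values below was not tested. In bulk RNA, fewer cells that express a gene and less RNA per cell cannot be told apart.

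The trophoblast genes moved in both directions. From D0 to D6, the keratin genes Krt8 and Krt18 fell 6.46-fold and 17.2-fold and Tead4 rose 4.54-fold, and no change of Tfap2c or Eomes passed the test. The test was limma on log2 CPM, adjusted by Benjamini-Hochberg over all genes and transposon families, and a gene was called at an adjusted p under 0.05 and over 4-fold. By this rule 3 of 5 genes were called from D0 to D6, with 9.81% of all genes called, and the same 3 of 5 passed the test with no fold minimum, as did 24.2% of all genes. From D6 to D13 limma called 0 of 5 (all genes, 1.09%), and Krt18, which was higher, was the 1 gene past the test (all genes, 4.18%). It was also the 1 gene with an unadjusted p under 0.05, and limma with voom precision weights called 0 as well. From D0 to D13, 2 of 5 were called, Krt8 and Krt18, against 13.5% of all genes, and 3 of 5 passed the test, against 42.7%. Over all genes, 20.9% passed it with a higher and 21.8% with a lower level at D13, against 1 and 2 of the 5. The median log2 fold change of the 5 genes from D0 to D13 was -0.44, and that of all genes was -0.01. All 3 comparisons share samples, and D6 enters both steps.

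**Figure D1:**
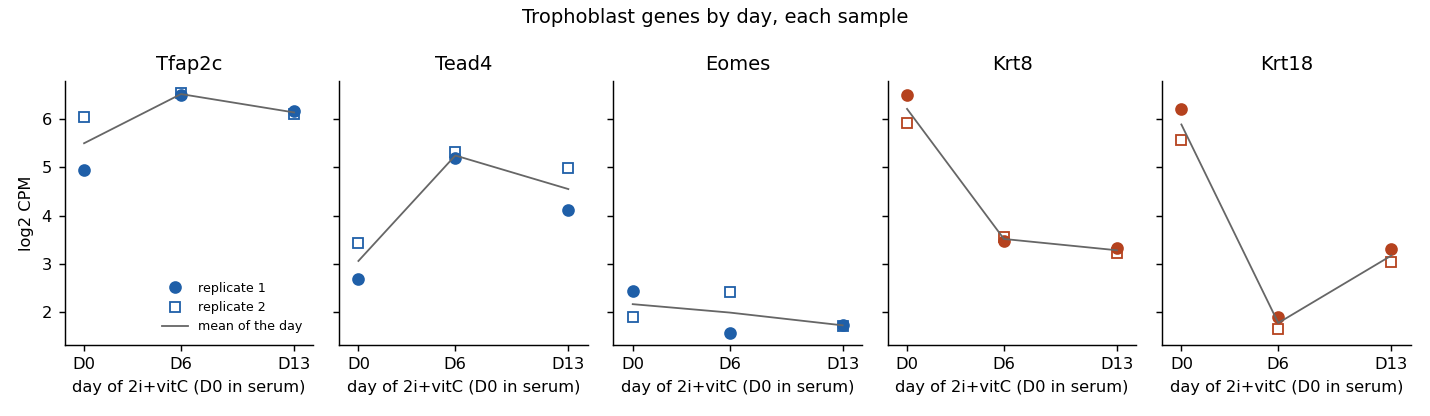
Log2 CPM of the 5 trophoblast genes with a row (vertical axis) against the day of 2i+vitC (horizontal axis), with each replicate as a point and the mean of the day as a line. Tead4 is higher and both keratin genes are lower at D6 and D13 than in either D0 sample, and the Eomes samples of D0 and D6 overlap.

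Tead4 (chromosome 6, 128224288 to 128300823, minus strand, GRCm38) lay at 2.70 and 3.42 log2 CPM at D0, 5.18 and 5.30 at D6, then 4.11 and 4.99 at D13, from 510 to 3363 reads. The samples of the 3 days did not overlap, with D0 lowest and D6 highest. The gene rose by a log2 fold change of 2.18 (SE 0.36, adjusted p = 0.0025, limma) from D0 to D6 and was 2.81-fold higher at D13 than at D0 (1.49, SE 0.36, adjusted p = 0.010). From D6 to D13 the difference was -0.70 (SE 0.36, adjusted p = 0.27), with a 95% interval of -1.51 to 0.12. The second step differed from the first by -2.88 (SE 0.62, adjusted p = 0.024), with 3 of 5 trophoblast genes and 8.85% of all genes past this test. Without D0 replicate 1 the rise to D6 was 1.82 (adjusted p = 0.021), under 4-fold, and 2 of 5 genes were called. The difference between D0 and D13 no longer passed without D0 replicate 1 (1.12, adjusted p = 0.062) and without D13 replicate 2 (1.05, adjusted p = 0.053). A processed pseudogene, Gm21893, lies on the opposite strand within Tead4, and the strand setting of the read counting was not given in the sources used here.

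Tfap2c (chromosome 2, 172549593 to 172558622, plus strand) was at 4.95 and 6.04 log2 CPM at D0, 6.49 and 6.54 at D6, then 6.17 and 6.10 at D13, from 2438 to 7895 reads. Both D0 samples were below the other 4, but they differed from each other by 1.09 on the log2 scale, more than the samples of D6 (0.043) or D13 (0.073). The log2 fold change from D0 to D6 was 1.02 (SE 0.33, adjusted p = 0.054, limma), with a 95% interval of 0.27 to 1.76. It was -0.38 (SE 0.33, adjusted p = 0.51) from D6 to D13 and 0.64 (SE 0.33, adjusted p = 0.15) from D0 to D13. Without D0 replicate 2, the difference from D0 was 1.56 at D6 and 1.18 at D13, both under 4-fold. Without D0 replicate 1 it was 0.47 at D6 and 0.093 at D13. The size of the Tfap2c difference thus depended on which D0 sample was kept.

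Eomes (chromosome 9, 118478212 to 118486132, plus strand) was at 2.44 and 1.89 log2 CPM at D0, 1.57 and 2.41 at D6, then 1.74 and 1.71 at D13, from 234 to 452 reads. The samples of D6 spanned those of D13 and overlapped those of D0, and both D13 samples lay below both D0 samples. The log2 fold change was -0.17 (SE 0.40, adjusted p = 0.80) from D0 to D6, -0.26 (adjusted p = 0.72) from D6 to D13 and -0.44 (adjusted p = 0.40) from D0 to D13. The 95% interval of the last was -1.34 to 0.46, so a fall, no change or a rise within these limits were all compatible with these samples. An antisense RNA gene, Gm33460, overlaps Eomes, and their reads may not be separable.

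The keratin genes lie side by side on chromosome 15, Krt8 (101996698 to 102004482) on the minus and Krt18 (102028180 to 102032027) on the plus strand. Their starts are 23.698 kb apart and face away from each other, with 0 protein-coding genes between. Krt8 was at 6.50 and 5.91 log2 CPM at D0, 3.48 and 3.55 at D6, then 3.33 and 3.23 at D13, from 706 to 7153 reads. Its D0 samples were the highest, and those of D13 were the lowest without overlap. Krt8 fell by 2.69 on the log2 scale (SE 0.27, adjusted p = 0.000215, limma) from D0 to D6 and was 7.60-fold lower at D13 than at D0 (-2.93, SE 0.27, adjusted p = 9.99e-05). From D6 to D13 the difference was -0.23 (SE 0.27, adjusted p = 0.63). A lincRNA gene, Gm36026, overlaps Krt8 on the other strand, and a processed pseudogene of it, Krt8-ps, is on chromosome 7.

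Krt18 was at 6.21 and 5.56 log2 CPM at D0, 1.90 and 1.65 at D6, then 3.30 and 3.04 at D13, from 267 to 5844 reads. The D6 samples were lowest and the D13 samples lay between those of D6 and D0, with no overlap. Krt18 fell by 4.11 (SE 0.31, adjusted p = 6.12e-05, limma) from D0 to D6 and then rose 2.63-fold, by a log2 fold change of 1.39 (SE 0.31, adjusted p = 0.043), to D13. It was still 6.56-fold lower at D13 than at D0 (-2.71, SE 0.31, adjusted p = 0.000258). The rise from D6 to D13 was near the threshold, and it did not pass with voom precision weights (adjusted p = 0.072), with log2(CPM + 1) (1.18, adjusted p = 0.052), or without D6 replicate 1 (1.52, adjusted p = 0.16), D6 replicate 2 (1.27, adjusted p = 0.34) or D13 replicate 1 (1.26, adjusted p = 0.17). The difference between the second and the first step was 5.50 (SE 0.53, adjusted p = 0.0015) for Krt18 and 2.46 (SE 0.47, adjusted p = 0.015) for Krt8. For Krt8 and Tead4 this difference no longer passed without either D6 replicate, and for Tead4 also without D13 replicate 1.

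**Figure D2:**
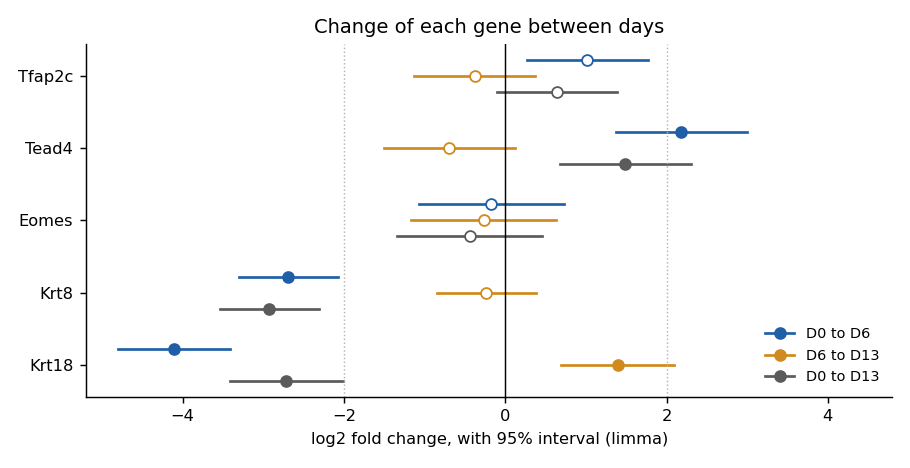
Log2 fold change of each gene (horizontal axis) in the 3 comparisons, with 95% intervals from limma. Filled points passed an adjusted p under 0.05, open points did not, and the dotted lines mark a 4-fold change. Both keratin genes lie beyond the lower line from D0 to D6, and Krt18 is the 1 gene with a filled point from D6 to D13.

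Krt8 and Krt18 proteins pair, and their transcripts were compared within each sample. The ratio of Krt8 to Krt18 in CPM was 1.22 and 1.28 at D0, 2.99 and 3.72 at D6, then 1.02 and 1.14 at D13. Per length of exon it was 0.898 and 0.937, 2.20 and 2.73, and 0.748 and 0.840. Both D6 samples stood apart with more Krt8 than Krt18, and the other 4 were near equality. An exact test of 2 samples against 2 cannot go below p = 0.333, and none is given.

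**Figure D3:**
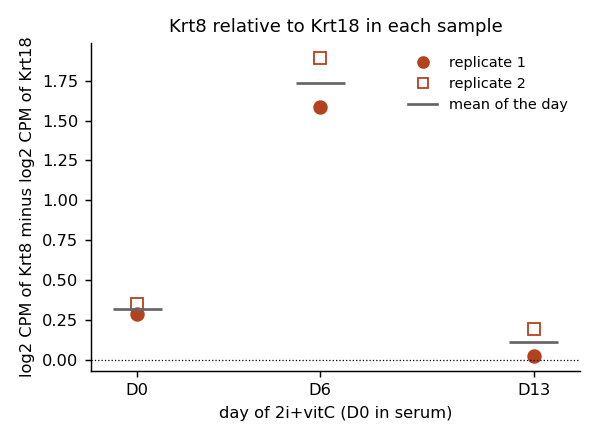
Log2 CPM of Krt8 minus log2 CPM of Krt18 in each sample (vertical axis) by day, with the mean of the day as a bar. The D6 samples, at 1.58 and 1.89, lie above those of D0 and D13, which lie between 0.03 and 0.35.

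Compared between genes in CPM per kilobase of exon, the order at D0 was Krt18 (42.2), Krt8 (38.5), Tfap2c (13.2), Tead4 (2.39) and Eomes (1.10), with the samples of the pair of keratins overlapping. At D6 it was Tfap2c (24.8), Tead4 (10.5), Krt8 (5.84), Krt18 (2.39) and Eomes (0.998), with no overlap between neighbours. At D13 it was Tfap2c (19.1), Tead4 (6.80), Krt18 (6.29), Krt8 (4.97) and Eomes (0.797), with the samples of Tead4 and Krt18 overlapping. The keratins thus led at D0 and Tfap2c led at D6 and D13, and Eomes was last on each day.

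The D0 replicates differed in several of these genes. Krt8 and Krt18 were 0.59 and 0.66 higher on the log2 scale in D0 replicate 1, which also held the lower Tfap2c and Tead4. Esrrb, a factor of naive pluripotency, was at 7.29 in that sample and 8.77 in the other, Id2 at 6.76 and 4.56 and Cdkn1c at 6.26 and 4.08 log2 CPM. Their part in the trophoblast gene values was not tested.

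The upstream sequences of 3 trophoblast genes with a row were in the RefSeq promoter table (GRCm38.p6), with 300-base windows from 250 bases before to 50 after the start. CpG pairs, the sites of DNA methylation, are in capitals, and the stretches before the transcribed part are shown because the keratin pair fell together and Eomes passed no test.
Krt8 (chr15:102004483-102004592, minus strand): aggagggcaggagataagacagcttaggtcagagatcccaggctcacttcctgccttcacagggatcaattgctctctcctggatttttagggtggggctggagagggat
Krt18 (chr15:102027966-102028179, plus strand): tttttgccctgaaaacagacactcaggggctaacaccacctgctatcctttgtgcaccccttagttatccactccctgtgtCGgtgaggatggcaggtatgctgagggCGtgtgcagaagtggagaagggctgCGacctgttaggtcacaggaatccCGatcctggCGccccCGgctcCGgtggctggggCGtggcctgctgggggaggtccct
Eomes (chr9:118477939-118478188, plus strand): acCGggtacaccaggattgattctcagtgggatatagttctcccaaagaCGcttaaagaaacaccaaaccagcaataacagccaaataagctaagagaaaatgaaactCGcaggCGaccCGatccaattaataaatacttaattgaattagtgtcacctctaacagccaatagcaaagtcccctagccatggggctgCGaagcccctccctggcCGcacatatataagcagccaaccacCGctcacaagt
The Krt8 stretch of 110 bases holds 0 CpG, and those of Krt18 (214 bases) and Eomes (250 bases) hold 8 each. The stretches leave out bases covered by an annotated exon, so they differ in length and in distance from the start. The whole windows of 300 bases hold 6 CpG for Krt8, 17 for Krt18 and 10 for Eomes. Over the whole windows, the observed over expected CpG ratio was 0.238 for Krt8, 0.603 for Krt18 and 0.607 for Eomes, above 34.1%, 64.4% and 64.7% of the 32851 windows in the table, whose median was 0.384. Of the genes without a row, Elf5 had windows of 0.110 and 0.442 and Plac1 of 0.22 and 0.331. In windows of 150 bases the ratio was 0.388 for Krt8, 0.798 for Krt18 and 0.446 for Eomes, so that all 3 values depend on the window. The AP-2 motif GCCNNNGGC, searched on both strands, is in 1 place in the Krt18 window and in 16.6% of all windows. The TEAD motif GGAATG is in 14.7% of all windows, with 1 match in 1 of the Elf5 windows, and these letters are not in the windows of Krt8, Krt18 or Eomes.

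Genes that accompany the keratins were read from a list of 29 keratin and junction genes, of which 26 had a row. From D0 to D13, 15 fell and 3 rose (69.2%, against 42.7% of all genes), with a median log2 fold change of -0.96. Krt19, a further simple epithelial keratin, was at 5.06 and 4.12 log2 CPM at D0, -0.01 and 0.57 at D6, then 0.04 and 0.94 at D13, and fell by 4.10 (SE 0.47, adjusted p = 0.00027, limma) from D0 to D13. Krt7 was at 2.72 and 2.08 at D0, 0.81 and 0.42 at D6, then 2.94 and 2.69 at D13. Krt7 fell by 1.79 (adjusted p = 0.0082) and then rose by 2.20 (adjusted p = 0.024), so that its D13 samples were above those of D6 without overlap.

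From D6 to D13, 3 of the 26 rose in limma and 23 did not pass (11.5% past the test, against 4.18% of all genes). The 3 were Krt7 and the claudins Cldn6 (1.14, adjusted p = 0.041) and Cldn7 (1.51, adjusted p = 0.035), which are tight junction proteins. Both claudins had fallen from D0 to D6, by 3.27 and 1.89. Epcam, an epithelial adhesion protein, fell by 2.53 and differed by 0.65 (adjusted p = 0.11) in the second step. The genes most like Krt18 over the 6 samples, of 11130 searched by the distance of centred log2 CPM, were Lfng (0.40), Syt11 (0.680) and Marveld3 (0.717), and those most like Krt8 were Dbn1 (0.344), Clu (0.426) and Bcl2l11 (0.440).

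**Figure D4:**
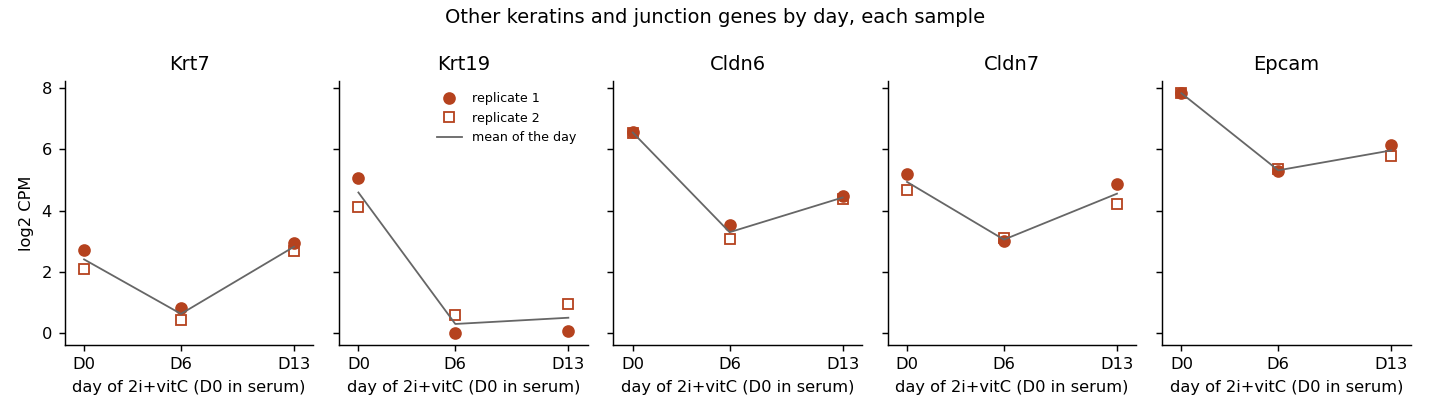
Log2 CPM of 2 other keratins and 3 junction genes (vertical axis) by day (horizontal axis), with replicates as points and the mean as a line. Krt7 returns at D13 to 2.94 and 2.69, and Krt19 stays at 0.04 and 0.94.

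Of 20 trophoblast stem cell genes 17 had a row, and from D0 to D13 2 rose and 6 fell, 47.1% in all, near the 42.7% of all genes. Tfap2a, a paralog of Tfap2c, was at 1.13 and 0.91 log2 CPM at D0, 3.59 and 3.33 at D6, then 3.58 and 3.07 at D13, and rose by 2.31 (SE 0.32, adjusted p = 0.00075, limma). The FGF receptor gene Fgfr2 fell by 7.30, the inhibitor of differentiation Id2 by 3.18 and the growth factor gene Bmp4 by 2.66. Of 32 genes of differentiated trophoblast, 14 had a row, and 2 rose and 9 fell (78.6%), with a median of -2.89. Of those that fell, Peg10 (-6.00), H19 (-5.92), Igf2 (-4.46), Phlda2 (-3.94) and Cdkn1c (-3.91) are imprinted genes, which act beyond the trophoblast.

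The Hippo pathway and TEAD list, whose effectors include TEAD4, had 23 of 25 genes with a row. Of these, 5 rose and 8 fell from D0 to D13 (56.5%, against 42.7% of all genes). Wwtr1, the gene of TAZ, rose by 1.57 (adjusted p = 0.00080, limma), and Yap1 differed by -0.20 (adjusted p = 0.49). Amot, which binds YAP, fell by 5.25, and Ctgf, a target of YAP and TEAD, by 2.01. Cyr61, another such target, fell by 1.17 (adjusted p = 0.018) to D6 and rose by 1.25 (adjusted p = 0.049) to D13, where it differed from D0 by 0.08 (adjusted p = 0.85). Of the other TEAD genes, Tead1 differed by 0.27 (adjusted p = 0.56) from D0 to D6, Tead2 by 0.56 (adjusted p = 0.14), and Tead3 fell by 1.24 (adjusted p = 0.024). The count of 13 for this list was 8 without D0 replicate 2 and 8 without D13 replicate 1. A list of 31 genes held paralogs of the trophoblast genes. Plac8, Plac9a and Plac9b in it share only part of a name with Plac1 and had no row. Of the 31, 14 had a row, with 5 higher and 2 lower from D0 to D13. That is 50.0%, near the 42.7% of all genes, and Elf4 (2.61), Tbx3 (3.26) and Tfap2a were called higher. That count of 7 was 4 without D6 replicate 2 and 4 without D13 replicate 1.

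Of 9 genes of the methylation machinery 8 had a row, and from D0 to D13 1 rose and 6 fell (87.5%). The de novo methyltransferase genes Dnmt3a and Dnmt3b fell by 2.39 and 3.70 from D0 to D13, their cofactor gene Dnmt3l by 6.32, and Uhrf1, which recruits the maintenance enzyme, rose by 1.65. Tet1, Tet2 and Tet3, whose enzymes oxidize methylated cytosine on the way to its removal, fell by 1.41, 1.09 and 1.92. The maintenance enzyme gene Dnmt1 differed by 0.41 (adjusted p = 0.18). Of 16 germline genes that DNA methylation is known to silence, 11 rose from D0 to D13 in limma. The other 5 did not pass (68.8% past the test), and the median was 1.47, with Dazl at 6.67 and Asz1 at 4.88. Every row was above 1 CPM in at least 2 samples, so genes below that at D0 have a row only through later days. Asz1, at 0.209 and 0.281 CPM at D0, is such a gene, and this filter favours its rise. Of the 5 trophoblast genes with a row, 1 rose and 2 fell. The pluripotency list had 6 of 16 genes higher and 4 lower (62.5%), with Tbx3 (3.26) and Tfcp2l1 (3.17) higher and Utf1 lower (-2.96). Among 9 mesoderm genes with a row 1 rose and 1 fell, and among 11 endoderm genes 1 rose and 4 fell, which is 22.2% and 45.5% against 42.7% of all genes.

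**Figure D5:**
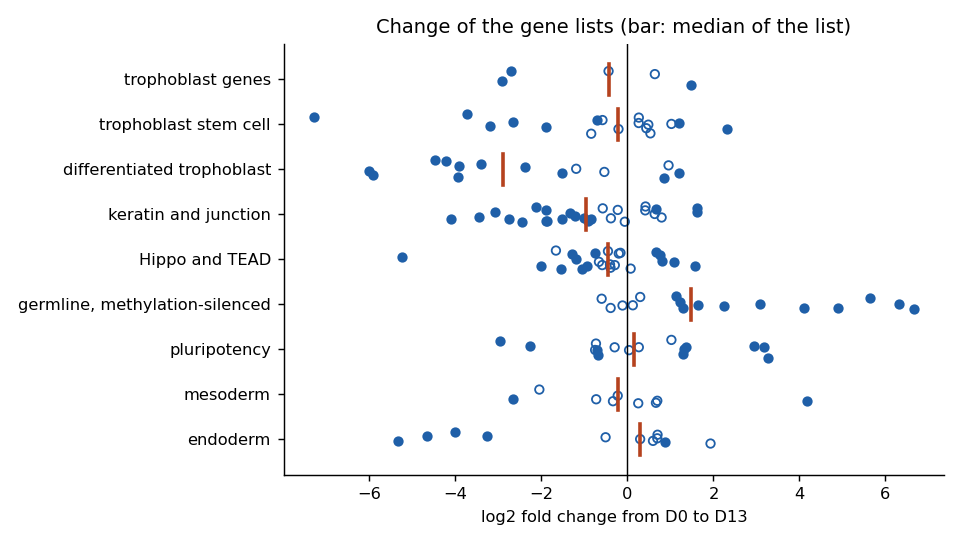
Log2 fold change from D0 to D13 (horizontal axis) of each gene with a row in the trophoblast genes and 8 lists. Filled points passed an adjusted p under 0.05, open points did not, and the vertical bar is the median of the list, which is -0.44 for the trophoblast genes and 1.47 for the germline genes. Every gene with a row was above 1 CPM in at least 2 samples, which favours a rise in genes silent at D0.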

How the data were processed

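RNA-seq of J1 ES cells was analysed at 3 days with 2 replicates per day. Per the labels and methods, libraries were made with a stranded mRNA kit, reads were mapped to mm10 with TopHat2 2.0.6 and counted with HTSeq 0.6.1. The authors normalized genes and transposon families together by TMM and deposited log2 CPM from voom. Undoing the log2 gave whole reads plus the offset of 0.5 (within 0.001) at every gene, and read numbers in the text come from this step.

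The log2 values were tested with limma 3.58.1 (R 4.3.3), with a mean for each day over all 6 samples, a mean-variance trend and no block. Benjamini-Hochberg adjustment ran over 12928 rows. The limma step was tested on simulated data. Tables were made with Python 3.11.15. The limma p-values weigh a difference between days against a spread between replicates that is moderated over all rows, and an SD rests on 2 values. Positions are from GENCODE vM21, and CPM per kilobase uses the union of its exons.

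All 5 trophoblast genes with a row are reported. Of each list, the genes named are those past the call rule, the 4 with the largest change from D0 to D13 with at least 10 reads, and lineage markers, and the 3 genes most like each keratin. Some listed genes of known role that fall outside that rule (Yap1, Tead1, Tead2, Tead3, Cyr61, Dnmt1, Tet1, Tet2, Uhrf1, Cldn7) were named after their values were seen, and some genes that meet the rule are not reported here by name. The members and lists were chosen with earlier results of these data known. Some genes, such as Tfap2a, Tbx3, Krt7 and Krt19, are in several lists, so the counts of the lists are not independent. The deposited names have lost the capital letter G, so symbols that hold it, such as Gata3, could not be matched. Alternatives were fits of only the days compared, limma without a trend, voom precision weights, a filter of 10 reads in 2 samples, the replicate number as a block, centring on the median gene, log2(CPM + 1), an adjusted p under 0.01, a 2-fold minimum and each sample left out.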

Additional observations from a re-analysis of the deposited data

How the results depend on the processing

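Over 275 values of the trophoblast genes under an alternative, 250 kept their direction and their side of the threshold. With no fold minimum, 16 no longer passed the test, some of them only because the alternative threshold was an adjusted p under 0.01. Another 4, all of Tfap2c, newly passed it at 0.05, and 5, all of Eomes, turned direction. The number called from D6 to D13 was 1 with a 2-fold minimum. The number past the test from D6 to D13 was 0 with voom precision weights, with log2(CPM + 1) and at an adjusted p under 0.01, and 0 to 1 when a sample was left out. The number whose second step differed from the first was 1 at an adjusted p under 0.01 and 1 to 4 when a sample was left out. When a sample was left out, the Eomes log2 fold change ranged from -0.59 to 0.25 from D0 to D6 and from -0.68 to 0.15 from D6 to D13, and its step difference from -0.93 to 0.75, and it was above 0 at 0.10 without D0 replicate 1, 0.25 without D6 replicate 1, 0.15 without D6 replicate 2, and for the step difference 0.18 without D0 replicate 2 and 0.75 without D6 replicate 2. Centring moved a sample by at most 0.031. The cause of these changes was not tested. With a sample left out, the lone sample of its day is assumed to vary like the others. With the replicate number as a block, 4 of 5 passed the test from D0 to D6, Tfap2c (1.02, adjusted p = 0.018) being added, and 3 of 5 were called. The deviations of same-numbered samples correlated over genes by -0.13 for D0 with D6, 0.33 for D6 with D13 and 0.14 for D0 with D13. These values do not show whether the numbers pair the samples.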
